A study of Mus musculus with 3 samples.

Results

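The genes described here are 8 components of the Notch pathway, of 28693 genes in the deposited matrices: the receptors Notch1, Notch2 and Notch3, the ligands Jag1, Jag2 and Dll1, and the transcriptional targets Hes1 and Hey1. They were chosen by gene symbol as a named set. Their unique molecular identifiers (UMIs, 1 for each captured mRNA molecule) were counted in single cells of mouse abdominal skin. Each of the 3 libraries is the only one of its group. NP came from non-pregnant mice, dpc16 from mice at gestation day 16, and dpp42 from mice at post partum day 42. In all 3 groups the mice were 8 to 12 weeks old, on a C57BL/6 background, and carried Col1a2creERT2 together with R26H2B EGFP. Col1a2creERT2 is a tamoxifen-inducible Cre recombinase under a Col1a2 promoter, which is active in fibroblasts, and every group had received tamoxifen: during pregnancy in dpc16 and dpp42, and for 3 days, with sampling 48 days later, in NP. The labels name the cells as dermal cells, and the number of animals behind a library is not stated. With 1 library per group, no difference between groups has a replicate check, no test between groups was possible, and the intervals given cover counting error only.

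Notch receptors are cell-surface proteins that are activated by ligands on a neighbouring cell. Binding of a Delta-like or Jagged ligand, which is made active by ubiquitin ligases such as Mib1 in the cell that presents it, exposes the receptor to Adam10 and then to γ-secretase. The freed intracellular domain enters the nucleus, where it joins Rbpj and a Maml co-activator and switches on target genes, among them the Hes and Hey repressors and the feedback inhibitor Nrarp. In the epidermis, Notch signalling is known for its part in the commitment of basal keratinocytes to differentiation. In vessels it is known for arterial specification and, through Notch3, for smooth muscle and pericyte identity.

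Notch2, Notch3 and Dll1 are shown with the bases that precede their transcription start, because Notch2 and Notch3 were both low in basal and high in suprabasal keratinocytes while Dll1 had the opposite pattern. The sequences are RefSeq promoter entries on build GRCm38.p6, written 5′ to 3′ on the strand of the gene, and capitals mark a match to the AP-1 motif TGANTCA. They lie at chr3:98013288-98013526 on the plus strand (239 bases), chr17:32166891-32167140 on the minus strand (250 bases) and chr17:15376933-15377182 on the minus strand (250 bases).
Notch2: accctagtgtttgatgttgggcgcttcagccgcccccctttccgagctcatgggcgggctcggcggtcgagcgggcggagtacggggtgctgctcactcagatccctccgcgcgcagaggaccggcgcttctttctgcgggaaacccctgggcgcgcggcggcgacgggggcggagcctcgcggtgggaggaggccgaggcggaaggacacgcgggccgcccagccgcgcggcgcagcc
Notch3: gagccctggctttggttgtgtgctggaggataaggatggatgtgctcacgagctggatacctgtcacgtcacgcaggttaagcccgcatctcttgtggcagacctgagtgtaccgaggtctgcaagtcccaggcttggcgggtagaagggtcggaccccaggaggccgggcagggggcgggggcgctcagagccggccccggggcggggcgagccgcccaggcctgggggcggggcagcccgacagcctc
Dll1: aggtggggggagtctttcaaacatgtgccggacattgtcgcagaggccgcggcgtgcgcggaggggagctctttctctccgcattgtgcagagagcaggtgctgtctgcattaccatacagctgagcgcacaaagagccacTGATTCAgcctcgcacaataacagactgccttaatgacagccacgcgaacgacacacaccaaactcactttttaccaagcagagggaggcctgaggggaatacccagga
The AP-1 match of Dll1 began 109 bases before the start of the RefSeq entry, which differs from the start in the annotation below. The motif as searched allows any base at N, which is T in this match. Of 32851 promoter windows of the same 250 bases, 6.75% held that motif on either strand. The GC content over 250 bases was 72% for Notch2, 68.8% for Notch3 and 56% for Dll1. The core letters of the Rbpj motif, TGGGAA, on either strand were in none of the 250-base windows of the 6 members with an entry (the members other than Hes1 and Hey1) and in 21.6% of all windows, which says only that these letters are not in those windows.

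In the annotation used here (GENCODE M21 on GRCm38), Notch1 is on chromosome 2 from 26457903 to 26516663 on the minus strand, Notch2 on chromosome 3 from 98013527 to 98150361 on the plus strand, and Notch3 on chromosome 17 from 32120820 to 32166852 on the minus strand. Jag1 is on chromosome 2 from 137081456 to 137116644, Jag2 on chromosome 12 from 112907819 to 112929776 and Dll1 on chromosome 17 from 15367354 to 15376872, all on the minus strand. Hes1 is on chromosome 16 from 30064384 to 30067796 on the plus strand and Hey1 on chromosome 3 from 8663359 to 8667256 on the minus strand. Genes on the other strand overlap Notch1 (0610009E02Rik and Gm13568), Notch3 (Gm17276) and Dll1 (A930024N18Rik), and the strand setting of the counting is not given in the sources used here.

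After barcodes with fewer than 200 genes or more than 10% mitochondrial UMIs were left out, 1289 NP, 3652 dpc16 and 1081 dpp42 cells remained, 6022 in all beside the 6020 that the study states. Their median depth was 3119, 4300.5 and 3252 UMIs per cell. Pairs of libraries shared 1 to 6 cell barcodes. Cells were clustered without any Notch gene, and clusters were called "X-like" from marker lists that hold no Notch gene. Keratinocyte-like classes made up 75.9% of the NP, 45.5% of the dpc16 and 59.7% of the dpp42 cells, although the labels call the cells dermal. The classes carried their defining markers: Krt14 was at 4878, 8373 and 4715 CPM (UMIs per 1000000 UMIs) in basal-like cells of NP, dpc16 and dpp42, Krt10 at 21605, 20466 and 22670 CPM in spinous-like cells, Pecam1 at 902, 1039 and 1081 CPM in blood endothelial-like cells and Rgs5 at 1704, 2225 and 1723 CPM in mural-like cells. The mural-like averages rest on few cells: Rgs5 was in 3 of 6 NP cells. In dpp42 it was in 1 of 3 cells with a Notch3 UMI and 0 of 5 without, so that level came from 1 cell. The dpc16 library stood apart in several respects. Haemoglobin UMIs, 3.46 and 17.2 CPM in the basal-like cells of NP and dpp42, were at 8100 CPM there. In the same basal-like cells the fibroblast marker sum was 339 CPM in dpc16, beside 174 (NP) and 164 (dpp42), and the sum of 10 heat shock genes 9880 CPM, beside 5155 and 5764. The dpc16 cells were also deeper, 11.4% of its barcodes were left out against 3.08% and 9.62%, and it held all 62 macrophage-like cells. Other than depth, for which thinned values are given, the part of these differences in the results was not tested.

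Over all kept cells, each of the 8 genes was captured in every library, at very different depth. Hes1 gave 27664 UMIs, Notch1 2899, Jag1 1765, Notch2 1229, Notch3 732, Dll1 444, Jag2 357 and Hey1 207. These totals differ with gene length and capture and rank no gene against another. They set the precision: intervals on Hes1 in a class are narrow, and those on Hey1 in keratinocytes are wide. The plot of levels by class gives all 8 genes in 12 classes. Sets of 3 values follow the order NP, dpc16, dpp42 throughout, and intervals in parentheses are 95% intervals.

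**Figure D1:**
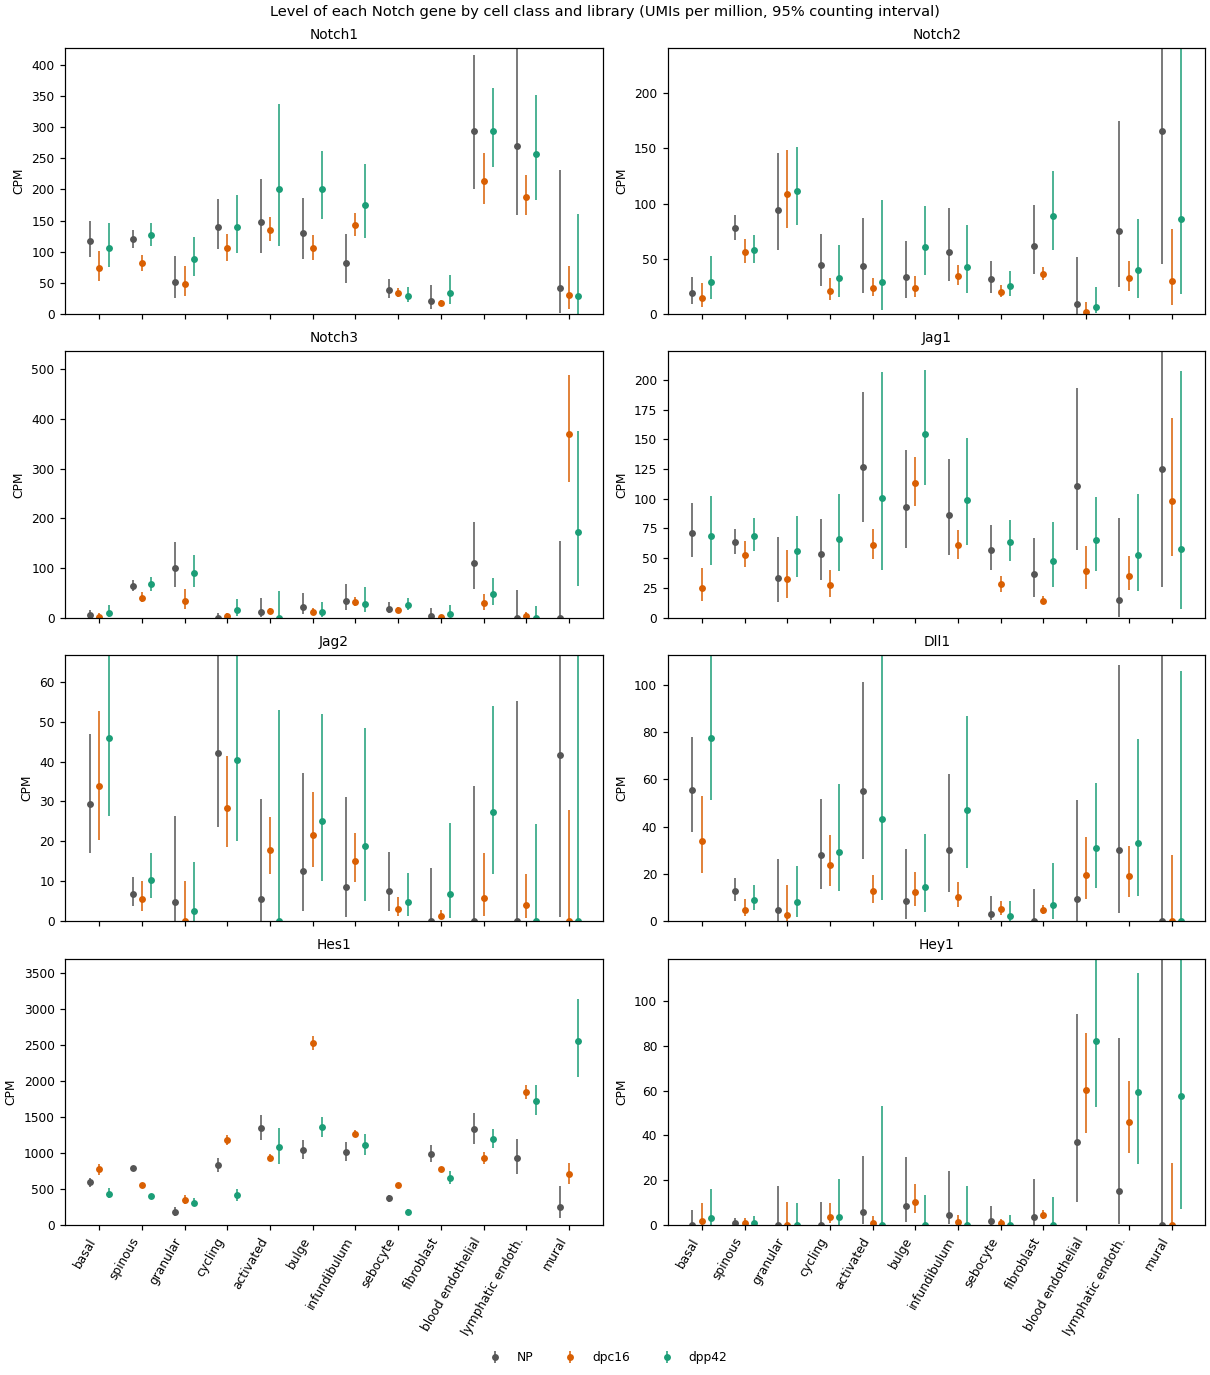
Level of each of the 8 Notch genes (vertical axis, CPM, starting at 0) in 12 cell classes (horizontal axis) in the NP, dpc16 and dpp42 libraries. Points are UMIs of the gene per 1000000 UMIs of the class and bars are exact 95% Poisson intervals, some of which run beyond the top of a panel. Notch2 and Notch3 are low in basal-like and higher in spinous-like and granular-like cells, Jag2 and Dll1 the reverse, and Hey1 stands out in the endothelial classes.

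Notch1, the receptor best known in epidermal differentiation, was present in every keratinocyte class and was highest in blood and lymphatic endothelial-like cells by its mean over libraries. In blood endothelial-like cells it stood at 295 CPM in NP (38 cells), 214 in dpc16 (107 cells) and 294 in dpp42 (85 cells). In fibroblast-like cells it stood at 21.8, 18.2 and 34.1 CPM. The libraries of the 2 classes did not overlap, and the blood endothelial-like level was 13.5-fold (95% interval 5.57 to 39.5), 11.8-fold (8.81 to 15.8) and 8.63-fold (4.47 to 18.6) that of fibroblast-like cells. Lymphatic endothelial-like cells gave 270, 189 and 257 CPM, which overlapped the blood endothelial range. Capillary and arterial endothelial-like cells, with 26 UMIs in 28 cells, were at 163, 185 and 115 CPM, within the range of several keratinocyte classes. They were led by Cytl1, Gkn3 and Mgp and were named from a joint list, of which Sema3g and Fbln5 were among their leading genes. Cd36, of the same list, was a leading gene of the dpc16 blood endothelial-like cells when that library was clustered alone. The name therefore does not confine capillary cells to this class. Mural-like cells, at 41.6, 30.2 and 28.7 CPM from 6 UMIs in all, were below all 3 endothelial classes in each library.

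Among keratinocytes, Notch1 was not resolved between the basal and the spinous layer. The basal-like level was 117 (NP), 74.6 (dpc16) and 106 (dpp42) CPM, and the spinous-like level 120, 81.4 and 127. The spinous-to-basal ratio was 1.02 (0.78 to 1.35), 1.09 (0.77 to 1.58) and 1.19 (0.836 to 1.75), so no library showed a difference beyond counting error. In all 3 libraries the early spinous-like cluster had more Notch1 than the late one and the granular-like cluster had the least of the 3 suprabasal clusters (52, 49.1 and 87.8 CPM from 14, 17 and 18 cells). Sebocyte-like cells, the lipid-producing cells of the gland, held 38.9, 33.8 and 29.3 CPM, which was 3.02-fold (1.9 to 4.95), 2.21-fold (1.49 to 3.22) and 3.63-fold (2.13 to 6.3) below basal-like cells. Ordered by its mean over libraries, Notch1 ran from blood and lymphatic endothelial-like through activated keratinocyte-like, capillary and arterial endothelial-like, and bulge-, infundibulum- and cycling-like cells to spinous- and basal-like, granular-like, sebocyte-, mural- and fibroblast-like cells. Most neighbours in that order overlapped between libraries. The break was above sebocyte-like cells, where the ranges of the classes on either side did not overlap.

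Notch2, a second receptor of the suprabasal epidermis, was higher in each successive layer. Its basal-like level was 19 (NP), 14.2 (dpc16) and 28.7 (dpp42) CPM, its spinous-like level 77.9, 56.3 and 58 and its granular-like level 94.5, 109 and 112. The libraries of basal-like cells lay below all those of spinous-like cells, and these below all those of granular-like cells. The spinous-to-basal ratio was 4.1 (2.24 to 8.36), 3.96 (1.94 to 9.42) and 2.02 (1.05 to 4.36), and the granular-to-basal ratio 4.98 (2.27 to 11.5), 7.67 (3.54 to 19) and 3.89 (1.92 to 8.69). Over the 4 interfollicular clusters, from basal-like through early and late spinous-like to granular-like, Notch2 was higher after each of the 3 steps in each library. Not every step was beyond counting error. In dpp42 the first went from 28.7 CPM (13.8 to 52.9) to 32 CPM. In NP the last went from 83.5 CPM to 94.5 CPM (57.8 to 146). In blood endothelial-like cells Notch2 was close to undetected, at 9.21, 1.95 and 6.84 CPM from 4 UMIs in 230 cells. Fibroblast-like cells held 61.8, 36.5 and 88.7 CPM, above blood endothelial-like cells in every library. Between these 2 classes Notch1 and Notch2 had opposite directions in all 3 libraries.

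Notch3 had the steepest difference between layers of the 3 receptors in each library. Basal-like cells gave 5.18 (NP), 1.78 (dpc16) and 8.62 (dpp42) CPM, from 7 UMIs in 448 cells. Spinous-like cells gave 64.2, 40.4 and 67 CPM. The 2 classes did not overlap, and the ratio was 12.4 (4.16 to 60.7), 22.8 (3.96 to 911) and 7.77 (2.58 to 38.3), the upper limits being wide because so few basal UMIs were counted. As a share of cells with a UMI, spinous-like cells reached 30.0%, 33.1% and 34.7% at a median depth of 4006, 8283 and 5361.5 UMIs, and basal-like cells 1.33%, 0.82% and 2.97% at 2388, 4201 and 2644. After every cell was thinned to 1500 UMIs, the shares were 8.65%, 4.05% and 9.41% in spinous-like and 0.444%, 0% and 1.98% in basal-like cells. Fibroblast-like cells, where Notch3 was at 1.25 to 6.82 CPM, gave unthinned shares of 1.02%, 0.555% and 1.79%, so the basal-like shares are at the level of that class.

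**Figure D2:**
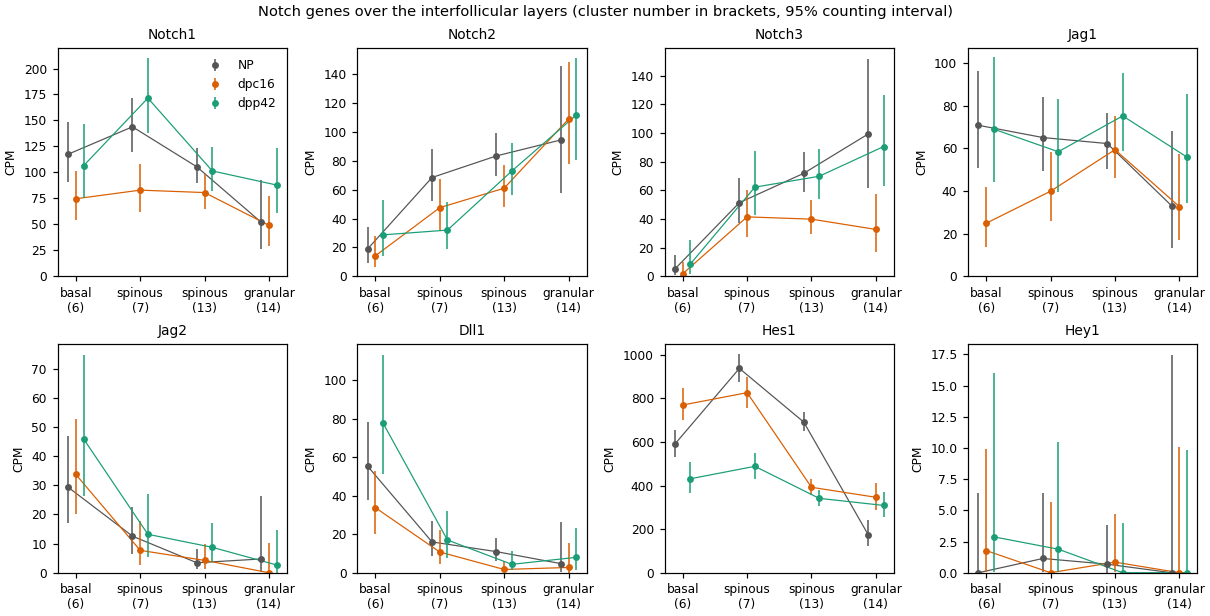
Level of each gene (vertical axis, CPM, starting at 0) over 4 interfollicular clusters (horizontal axis) in the NP, dpc16 and dpp42 libraries, with exact 95% Poisson intervals as bars. Lines join the clusters of 1 library. Notch2 goes up at each step in all 3 libraries, though not always beyond counting error. Notch3 goes up at each step in NP and dpp42 but is flat after the first step in dpc16, and Jag2 and Dll1 drop from the basal-like to the first spinous-like cluster in all 3.

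Beyond the basal layer, Notch3 differed in its course between libraries. In NP and dpp42 it was higher after each of the 3 steps and reached 99.3 and 90.5 CPM in granular-like cells. In dpc16 it stood at 41.5 and 39.9 CPM in the spinous-like clusters and at 32.7 CPM in the granular-like one. Infundibulum-like cells, from the follicle opening, had 34.5, 31.9 and 28.3 CPM and sebocyte-like cells 17.9, 16.1 and 25.8 CPM. In the order of levels, spinous-like, infundibulum-like and sebocyte-like cells followed each other without overlap between libraries.

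Among mural-like cells, Notch3 was carried by 1 of 2 clusters. The marker lists do not separate smooth muscle of vessels from other smooth muscle, so neither cluster is placed in the vessel wall. The cluster led by Rgs5 and Tagln, with 3, 21 and 3 cells, held 0, 559 and 803 CPM, the dpp42 value from 6 UMIs. The cluster led by Acta2, Myl9 and Myh11, with 3, 8 and 5 cells, had no Notch3 UMI in any library. A count of 0 in the 16 cells of the latter allows a level of up to 34.7 CPM (3 counts over the cluster), and the NP value of 0 for the 6 mural-like cells together allows up to 125 CPM. For mural-like cells together the level was 369 CPM in dpc16 (273 to 488) and 172 in dpp42 (63.2 to 375), against 1.25 and 6.82 CPM in fibroblast-like cells. That was a ratio of 295 (126 to 842) in dpc16 and 25.3 (4.52 to 256) in dpp42.

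Blood endothelial-like cells also gave Notch3, at 110.5 (NP), 29.2 (dpc16) and 47.9 (dpp42) CPM. All 10 mural markers were above 0 in that class in every library, with a summed level of 858 to 994 CPM against 19120 to 30269 CPM in mural-like cells. The Notch3 UMIs were in 30 of its 230 cells. Of these 30 cells, 25 also held Rgs5, a pericyte marker, against 33 of the 200 cells without Notch3, and 27 of the 30 held Pecam1. Their summed mural markers were at 2621 CPM, against 577 CPM in the other 200 cells, and their 9 blood endothelial markers at 4347 against 5658 CPM. The median depth was 4129 and 3273 UMIs. These counts were made after the class level had been seen, and whether the cells are mixed droplets was not tested. Lymphatic endothelial-like cells, by contrast, held 3 Notch3 UMIs in 194 cells.

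Among the ligands, Jag1 was spread over all keratinocyte classes and did not follow the layers. Basal-like cells had 70.8 (NP), 24.9 (dpc16) and 69 (dpp42) CPM, and spinous-like cells 63.3, 52.5 and 69.1. The spinous-to-basal ratio was 0.894 (NP, 0.629 to 1.3), 2.11 (dpc16, 1.2 to 4) and 1 (dpp42, 0.636 to 1.64). Only dpc16 passed the size rule used throughout (a ratio of at least 1.5 either way, a 95% interval that excludes 1 and at least 20 UMIs), and it was the basal-like level that was low there. The highest keratinocyte levels were in bulge-like cells, at 92.9, 113 and 154 CPM, and in activated-like cells (led by Serpinb2, Fosl1 and Krt16) at 127, 61.1 and 100.5. Bulge-like cells were named from markers of the follicle stem cell compartment, though part of them also had upper follicle markers among their leading genes. Capillary and arterial endothelial-like cells had 163, 194 and 288 CPM from 3, 21 and 4 cells. Against the other blood endothelial-like cells, at 110.5, 38.9 and 65 CPM, that was 4.97-fold higher in dpc16 (2.61 to 9.55) and 4.43-fold in dpp42 (1.29 to 12.3), and not resolved in NP with 2 UMIs.

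Among keratinocytes, Jag2 was highest in basal-like and cycling-like cells. It was at 29.4 (NP), 33.8 (dpc16) and 46 (dpp42) CPM in basal-like cells, and at 42.1, 28.3 and 40.4 CPM in cycling-like keratinocytes. In spinous-like cells it was at 6.85, 5.47 and 10.4 CPM. These libraries lay below every basal-like and cycling-like one, and the basal-like level was 4.29-fold (2.04 to 9.07), 6.18-fold (2.73 to 14.9) and 4.44-fold (2.06 to 9.64) the spinous-like one. Granular-like cells held 2 Jag2 UMIs in 49 cells. Outside the keratinocytes, capillary and arterial endothelial-like cells gave 163, 33.7 and 57.7 CPM from only 7 UMIs in 28 cells, which overlapped the basal-like and cycling-like levels. Sebocyte-like cells gave 7.47, 3.08 and 4.69 CPM, 3.93-fold to 11-fold below basal-like cells, and fibroblast-like cells 0, 1.25 and 6.82. Basal-like and cycling-like cells were next to each other in the order and overlapped. The next class, bulge-like cells at 12.7, 21.5 and 25.1 CPM from 3, 23 and 7 UMIs, had lower values than both in every library. The bulge-to-basal ratio was 0.431 (0.081 to 1.49), 0.637 (0.332 to 1.24) and 0.547 (0.19 to 1.4), so no library showed that difference beyond counting error.

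Dll1, a Delta-like ligand, was likewise highest in the basal layer among keratinocytes by its mean over libraries. Its basal-like level was 55.3 CPM for NP (37.8 to 78), 33.8 CPM for dpc16 (20.3 to 52.7) and 77.6 CPM for dpp42 (51.2 to 113). Its spinous-like level was 12.8, 4.92 and 8.98 CPM. No spinous-like library reached a basal-like one, and the basal-like level was 4.31-fold (2.53 to 7.34), 6.86-fold (2.96 to 17.2) and 8.64-fold (4.31 to 18.2) the spinous-like one. Granular-like cells, with 5 Dll1 UMIs in 49 cells, were at 2.73 to 7.99 CPM. Bulge-like cells were also below basal-like cells in all 3 libraries, at 8.44, 12.2 and 14.4 CPM, and so were sebocyte-like cells, at 2.99, 5 and 2.34 CPM. Activated-like cells were at 55, 12.6 and 43.1 CPM, infundibulum-like cells at 30.2, 10.2 and 47.1 and cycling-like cells at 28, 23.9 and 29.4. Each of these classes was below basal-like cells by the size rule in only 1 of 3 libraries. Mural-like cells had no Dll1 UMI in 43 cells, which allows a level of up to 15.7 CPM (3 counts over the class). Capillary and arterial endothelial-like cells gave 325, 42.1 and 57.7 CPM from 10 UMIs, and every neighbouring pair of classes in the order of Dll1 levels overlapped between libraries. With each cell thinned to 1500 UMIs, the log2 ratio of spinous-like to basal-like cells over the 3 libraries moved from -2.49 to -1.74.

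The receptors and ligands thus divided the interfollicular layers in each library. Jag2 and Dll1 were higher in basal-like cells, Notch2 and Notch3 in spinous-like cells, and Notch1 was not resolved between them. Each of these 4 directions passed the size rule in 3 of 3 libraries.

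Hes1, a repressor and the most used readout of the pathway, was found in all classes. In the interfollicular layers it did not follow Notch2 and Notch3. Basal-like cells had 591 (NP), 769 (dpc16) and 431 (dpp42) CPM, spinous-like cells 783, 547 and 395, and granular-like cells 175, 346 and 309. The spinous-to-basal ratio was 1.33 (1.18 to 1.49), 0.71 (0.634 to 0.797) and 0.916 (0.764 to 1.1), so its direction differed between libraries and in none reached 1.5 either way. That value moved with the processing: over the 3 libraries the log2 ratio was -0.036, and it was 0.44 with cells thinned to 1500 UMIs and -0.81 with cells put in classes 1 at a time without clusters. Granular-like cells were 3.38-fold (NP, 2.4 to 4.88), 2.22-fold (dpc16, 1.82 to 2.73) and 1.4-fold (dpp42, 1.09 to 1.8) below basal-like cells. Sebocyte-like cells were at 368, 552 and 183 CPM, and activated-like cells at 1348, 935 and 1076. Hes1 was at 1326, 926 and 1194 CPM in blood endothelial-like, 929, 1842 and 1729 in lymphatic endothelial-like and 249, 701 and 2556 CPM in mural-like cells, the last from 6, 29 and 8 cells. Every pair of neighbours in the order of Hes1 levels overlapped between libraries.

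In the follicle, bulge-like cells had 1.76-fold (1.49 to 2.08), 3.29-fold (2.97 to 3.64) and 3.16-fold (2.61 to 3.84) the basal-like Hes1 level, and infundibulum-like cells 1.72-fold, 1.65-fold and 2.58-fold. Of the 2 bulge-like clusters, the one led by Postn, Sfrp1, Shisa2 and Lhx2 (cluster 0) had 225 (NP), 323 (dpc16) and 376 (dpp42) CPM. That was below the basal-like 591, 769 and 431 CPM in every library. The higher level of the class came from the other (cluster 1), which had 3739, 3467 and 5600 CPM from 22, 216 and 16 cells. No library of one overlapped the other. Immediate early genes, which cells switch on within minutes of a stimulus, moved with it: the sum of 14 such genes was 6038, 6863 and 5470 CPM in cluster 0 and 30076, 41733 and 33888 CPM in cluster 1. The sum of 10 heat shock genes was 4863, 9591 and 4992 CPM against 22580, 36670 and 24650. Cluster 1 had Postn and Sox9 of the bulge list among its 10 leading genes. Also among them were Aqp3 and Fst of the upper follicle list and the haemoglobin genes Hbb-bs and Hba-a2. Its name came from the highest mean enrichment, so it may hold upper follicle cells. The part of immediate early, heat shock and haemoglobin genes in the Hes1 level was not tested. An unnamed cluster led by Nppc, Sgk1 and Lgr5 (cluster 21) had 1124, 2661 and 784 CPM of Hes1 beside immediate early sums of 22836, 75311 and 22199 CPM.

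**Figure D3:**
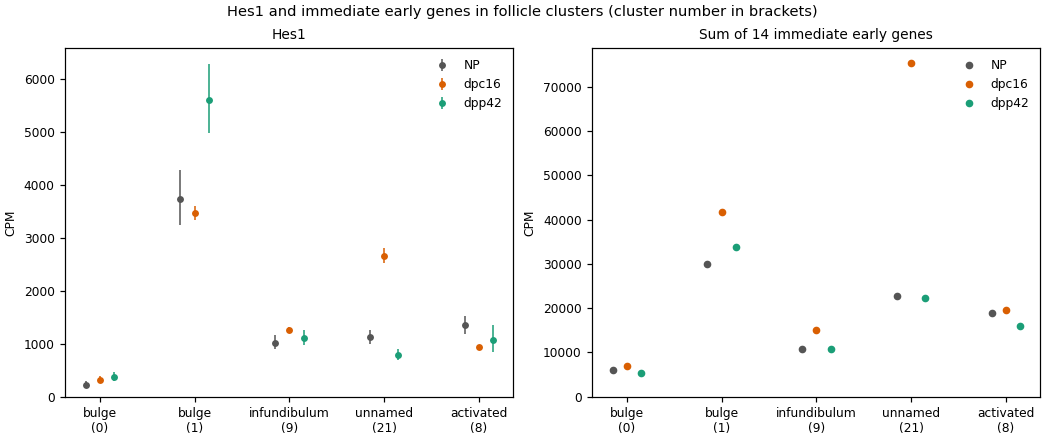
Hes1 (left, CPM with exact 95% Poisson intervals) and the sum of 14 immediate early genes (right, CPM) in 5 clusters in the NP, dpc16 and dpp42 libraries, vertical axes starting at 0. Cluster 1 is high and cluster 0 low on both plots in all 3 libraries, and cluster 21 is high in dpc16 on both.

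Hey1, a related repressor, had higher values in endothelial-like cells than in keratinocyte and fibroblast-like cells in each library, though on few UMIs in NP. Blood endothelial-like cells had 36.8 CPM in NP from 4 UMIs, 60.3 in dpc16 and 82.1 in dpp42, and capillary and arterial endothelial-like cells 81.3, 252 and 231 CPM from 1, 30 and 4 UMIs. Keratinocyte classes lay between 0 and 10.3 CPM in every library, and fibroblast-like cells at 3.64, 4.18 and 0 CPM. The blood endothelial-like level in dpc16 was 14.4-fold that of fibroblast-like cells (7.98 to 26.7). In dpc16 the capillary and arterial endothelial-like cells were 4.19-fold (2.45 to 7.15) above the other blood endothelial-like cells, which may also hold capillary cells. Lymphatic endothelial-like cells were at 15, 46.1 and 59.4 CPM from 1, 34 and 9 UMIs, which overlapped the blood endothelial range. In NP they were not resolved from fibroblast-like cells (ratio 4.12, 0.0525 to 323). Schwann-like cells also overlapped it, at 52.5, 44.8 and 61.7 CPM, but on 4 UMIs in 21 cells.

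The next comparison asked how the 8 genes differed between the libraries within a class, with the size rule given above and only in classes with at least 50 cells in both libraries. Between dpc16 and NP, 7 classes could be compared, and of 56 combinations of gene and class 3 were higher in dpc16, 9 lower, 29 neither, and 15 had too few UMIs. In the same classes the rule called 7.38% of all measured genes higher and 13.6% lower in basal-like, 4.39% and 21.1% in spinous-like, 5.86% and 13.7% in cycling-like, 7.17% and 8.83% in bulge-like, 4.17% and 9.17% in infundibulum-like, 6.2% and 10.5% in sebocyte-like, and 5.05% and 13% in fibroblast-like cells. The median log2 ratio of all genes was below 0 in each class, from -0.28 to -0.08. With each ratio scaled by that median, 2 lower calls were made in place of 9, and with cells thinned to 1500 UMIs 5. In basal-like cells 2 of 5 measured members were lower (13.6% of 5363 genes), with a median log2 ratio of -0.65 over the 5 beside -0.09 over all genes. In spinous-like cells 2 of 7 were lower (21.1% of 8721 genes), with a median of -0.52 beside -0.28.

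Jag1 accounted for 4 of the 9 lower values. In basal-like cells it was at 24.9 CPM in dpc16 against 70.8 in NP, a ratio of 0.351 (0.177 to 0.658). The ratio was 0.494 (0.329 to 0.752) in sebocyte-like cells (background 10.5%), 0.51 (0.27 to 0.98) in cycling-like cells (13.7%) and 0.396 (0.203 to 0.863) in fibroblast-like cells (13%). In bulge-like cells, by contrast, Jag1 was at 113 against 92.9 CPM, a ratio of 1.22 (0.769 to 2.02). The basal-like and sebocyte-like values kept their call after scaling by the median gene. Fibroblast-like cells came from different clusters: the most numerous was one led by Klk1 in dpc16 (344 of 1081 cells), which held 3 NP and 1 dpp42 cells, one led by Ccl2 in NP (51 of 98) and one led by Mmp3 in dpp42 (63 of 112). The sebocyte-like value was uneven over the 3 sebocyte-like clusters, at 0.146 (0.0353 to 0.458) in cluster 24, 0.532 (0.288 to 1.03) in cluster 12 and 0.924 (0.402 to 2.48) in cluster 16.

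Of the receptors, Notch3 was lower in dpc16 in spinous-like cells, at 40.4 against 64.2 CPM, a ratio of 0.63 (0.47 to 0.838). The median depth of those cells was 8283 UMIs in dpc16 and 4006 in NP. With every cell thinned to 1500 UMIs the log2 ratio was -0.89, beside -0.66 unthinned, but with fewer UMIs it no longer passed the size rule. The call was also lost when ratios were scaled by the median gene (-0.38), and when mitochondrial, ribosomal protein and haemoglobin UMIs were left out of the totals (-0.46). By cluster, the Notch3 ratio was 0.807 (0.481 to 1.33) in the early spinous-like cluster and 0.555 (0.385 to 0.79) in the late one. Granular-like cells, too few for the rule, had 32.7 against 99.3 CPM of Notch3. Notch2 was lower in cycling-like cells, at 20.7 against 44.9 CPM (0.461, 0.224 to 0.958), on 19 and 16 UMIs. Notch1 was lower in basal-like cells, at 0.635 (0.422 to 0.947), and in spinous-like cells its ratio of 0.68 (0.553 to 0.832) excluded 1 without reaching the size rule. In infundibulum-like cells Notch1 was higher, at 143 against 81.9 CPM, a ratio of 1.74 (1.09 to 2.94, background 4.17%), on 19 UMIs in NP. That direction reversed when clusters were drawn at resolution 2, to -0.49 on the log2 scale, and when each library was clustered alone, to -0.59. Dll1 was lower in spinous-like cells, at 4.92 against 12.8 CPM (0.383, 0.16 to 0.828), and in infundibulum-like cells, at 10.2 against 30.2 CPM (0.339, 0.134 to 0.966, background 9.17%). The spinous-like value rested on 9 UMIs in dpc16 and 30 in NP and was uneven over the clusters. It was 0.672 (0.23 to 1.78) in the early spinous-like cluster and 0.155 (0.0173 to 0.659) in the late one, on 2 and 16 UMIs. Jag2 had no call in any class.

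Hes1 was higher in dpc16 in bulge-like cells, at 2528 against 1039 CPM, a ratio of 2.43 (2.14 to 2.78, background 7.17%). Bulge-like cells of dpc16 were mostly cluster 1 (216 of 318 cells) and those of NP mostly cluster 0 (70 of 92). Within cluster 0 the dpc16 level was 323 against 225 CPM and within cluster 1 it was 3467 against 3739, and with both clusters weighted equally the log2 ratio was -0.069. The immediate early sum of bulge-like cells was 11603 CPM in NP and 31322 in dpc16, and the heat shock sum 8964 and 28585, and their part was not tested. In sebocyte-like cells Hes1 was higher by 1.5-fold (1.31 to 1.72, background 6.2%), at 552 against 368 CPM. The ratio was 1.83 (1.47 to 2.32) in cluster 16 and 1.86 (1.35 to 2.61) in cluster 24, and 0.979 (0.792 to 1.22) in cluster 12. The heat shock sum of sebocyte-like cells was 6906 CPM in NP and 12060 in dpc16. In basal-like and cycling-like cells the Hes1 ratios, 1.3 (1.13 to 1.51) and 1.43 (1.25 to 1.63), excluded 1 without reaching the size rule, and in spinous-like cells the ratio was 0.698 (0.645 to 0.754).

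**Figure D4:**
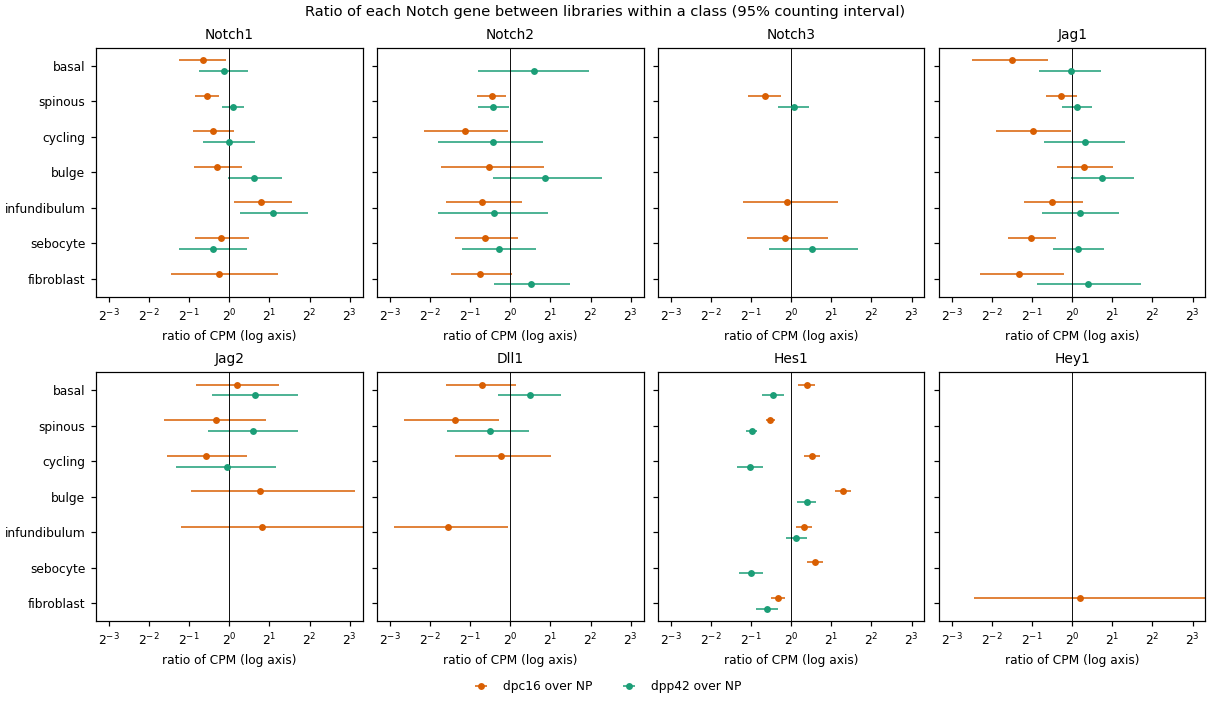
Ratio of CPM of each gene in dpc16 over NP and in dpp42 over NP (horizontal axis, logarithmic, base 2) in 7 cell classes (vertical axis). Points are ratios, bars exact 95% conditional binomial intervals for counting error, and combinations with under 20 UMIs or with no UMI in a library are left out. Jag1 sits left of 1 for dpc16 in basal-like, cycling-like, sebocyte-like and fibroblast-like cells and near 1 for dpp42, and Hes1 lies right of 1 for dpc16 and left of 1 for dpp42 in sebocyte-like and cycling-like cells. The ends of a few wide intervals lie outside the axis.

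Between dpp42 and NP, 1 combination was higher, 4 were lower, 29 were neither and 22 had too few UMIs. The rule called 3.16% of all measured genes higher and 3.39% lower in basal-like, 1.91% and 4.59% in spinous-like, 3.25% and 3.68% in cycling-like, 3.58% and 3.72% in bulge-like, 3.77% and 3.07% in infundibulum-like, 3.32% and 2.02% in sebocyte-like, and 8.36% and 7.2% in fibroblast-like cells. The 4 lower values were all Hes1. In spinous-like cells it was at 395 CPM in dpp42 against 783 in NP, a ratio of 0.504 (0.458 to 0.554, background 4.59%). In cycling-like cells the ratio was 0.494 (0.393 to 0.617, background 3.68%), in sebocyte-like cells 0.497 (0.404 to 0.61, background 2.02%) and in fibroblast-like cells 0.661 (0.546 to 0.798, background 7.2%). The sebocyte-like direction reversed, to 1.09 on the log2 scale, when only cells of at most 5% mitochondrial UMIs were kept. Within spinous-like cells the 2 clusters gave near values, 0.521 (0.451 to 0.599) and 0.494 (0.434 to 0.561). The sum of immediate early genes in spinous-like cells was 8950 CPM in NP and 6344 in dpp42. In basal-like cells the Hes1 ratio was 0.73 (0.598 to 0.887), in infundibulum-like cells 1.09 (0.909 to 1.32) and in bulge-like cells 1.31 (1.11 to 1.54). The higher value was Notch1 in infundibulum-like cells, at 174 against 81.9 CPM, a ratio of 2.13 (1.19 to 3.92, background 3.77%), on 19 UMIs in NP. The call was lost at resolution 2, where the log2 ratio was 0.057, and with each library clustered alone, where it was 0.33. Jag1 in basal-like cells stood at 69 against 70.8 CPM (0.974, 0.563 to 1.65) and Notch3 in spinous-like cells at 67 against 64.2 (1.04, 0.8 to 1.36).

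Between dpp42 and dpc16, where 8 classes could be compared, 11 combinations were higher in dpp42, 4 lower, 31 neither and 18 had too few UMIs. The background was 13.8% higher and 7.83% lower in basal-like, 18.2% and 6.11% in spinous-like, 13.7% and 6.72% in cycling-like, 10.4% and 7.42% in bulge-like, 10.2% and 3.78% in infundibulum-like, 13.1% and 6.2% in sebocyte-like, 17.9% and 4.11% in fibroblast-like, and 12.9% and 7.71% in blood endothelial-like cells. These 2 libraries are the same as in the comparisons above, so the values are not independent of them. The median log2 ratio of all genes was above 0 in each class, from 0.09 in basal-like to 0.41 in fibroblast-like cells. With that median subtracted, the log2 ratio of Notch1 in spinous-like cells went from 0.64 to 0.44, which is under a ratio of 1.5. That of Hes1, which had no call there, went from -0.47 to -0.67 in spinous-like and from -0.26 to -0.66 in fibroblast-like cells. Jag1 was higher in dpp42 in basal-like (2.77, 1.38 to 5.8), cycling-like (2.43, 1.25 to 4.63), sebocyte-like (2.25, 1.56 to 3.25) and fibroblast-like cells (3.31, 1.72 to 5.94). Dll1 was higher in basal-like cells (2.3, 1.23 to 4.37) and infundibulum-like cells (4.61, 1.89 to 10.7). Notch1 and Notch3 were higher in spinous-like cells (1.56, 1.25 to 1.95, and 1.66, 1.21 to 2.27), Notch1 and Notch2 in bulge-like cells (1.9, 1.36 to 2.64, and 2.61, 1.32 to 5.03) and Notch2 in fibroblast-like cells (2.43, 1.54 to 3.68). The 4 lower values were Hes1 in basal-like, cycling-like, bulge-like and sebocyte-like cells, at 0.56, 0.346, 0.538 and 0.331. The bulge-like direction reversed, to 0.22 on the log2 scale, with both clusters weighted equally or without cluster 1, which held 216 of 318 bulge-like cells in dpc16 and 16 of 108 in dpp42. In blood endothelial-like cells none of the 5 measured members had a call, and Notch1 there had a ratio of 1.37 (1.02 to 1.84).

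Because the mix of keratinocyte clusters differs between libraries, each gene was also averaged over shared keratinocyte-like clusters with equal weight. For dpc16 over NP, over 12 clusters, the ratio was 0.808 for Notch1, 0.633 for Notch2, 0.694 for Notch3, 0.653 for Jag1, 1.09 for Jag2, 0.605 for Dll1 and 1.07 for Hes1. Notch2 and Jag1 were higher in dpc16 in 1 of the 12 clusters each, Notch1 in 2, Dll1 in 3, Notch3 in 4, and Jag2 and Hes1 in 7. For dpp42 over NP, over 9 clusters, the ratios of the receptors and ligands ran from 0.864 for Notch2 to 1.26 for Dll1, and that of Hes1 was 0.653, with a higher level in 2 of 9 clusters. Hey1 had too few UMIs in keratinocytes for such a ratio to be read.

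The other pathway genes were taken from a list of 54. Between dpc16 and NP 28 combinations of gene and class were lower and 2 higher, the background being as given above. Spinous-like cells held 12 of the lower ones among 32 measured, with a median log2 ratio of -0.51 over the 32 beside -0.28 over all genes. Elsewhere 4 of 18 measured were lower in basal-like and 4 of 18 in cycling-like cells. The counts were 2 of 28 in bulge-like, 2 of 25 in infundibulum-like, 2 of 25 in sebocyte-like and 2 of 35 in fibroblast-like cells, each below the share of all genes. Mib1, the ubiquitin ligase that makes Notch ligands active, was lower in 6 of 7 classes. It was at 53.6 (NP), 7.11 (dpc16) and 63.2 (dpp42) CPM in basal-like cells, 58.6, 23 and 62.2 in spinous-like cells and 76.4, 31.3 and 85.2 in fibroblast-like cells. In each of these 3 classes dpc16 was the low library and NP and dpp42 were close. Rbpj, the DNA-binding partner of the receptor domain, was lower in dpc16 in spinous-like cells (0.501, 0.314 to 0.779), cycling-like cells (0.194, 0.0767 to 0.455) and fibroblast-like cells (0.4, 0.274 to 0.603). The proteases Adam10 and Adam17 were lower in spinous-like cells (0.446, 0.31 to 0.63, and 0.477, 0.353 to 0.638), and others there included Ep300, Numb, Itch, Fbxw7, Neurl3, Aph1c and Dtx3l. Other lower values included those of Adam10, Maml3 and Itch in basal-like, Neurl1b in cycling-like, Poglut1 in bulge-like, and Kat2b and Dtx4 in sebocyte-like cells. Dll4, Lfng, Rfng, Mib2, Psen2, Ncstn, Aph1a, Aph1b, Snw1, Kat2a, Numbl, Dtx3 and Hes6, each with at least 200 UMIs, had no call in any comparison of libraries. The 2 higher ones were Dlk2 in basal-like cells, a Delta-like protein without the usual ligand domain, at 71.1 against 34.5 CPM, and Mfng in sebocyte-like cells, with 29 UMIs in dpc16 and none in NP.

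Between dpp42 and NP, 2 of these combinations were higher and none was lower, the background being as given above. They were Rbpj in basal-like cells (57.5 against 25.9 CPM, 1 of 17 measured) and Nrarp in sebocyte-like cells (79.6 against 44.8 CPM, 1 of 15 measured). Between dpp42 and dpc16, 35 were higher and 4 lower, the background for each class being as given above. The higher ones were 10 of 31 measured in spinous-like, 4 of 15 in cycling-like, 5 of 26 in sebocyte-like and 5 of 25 in blood endothelial-like cells. They were 2 of 14 in basal-like, 3 of 26 in infundibulum-like, 2 of 30 in bulge-like and 4 of 35 in fibroblast-like cells. In bulge-like and fibroblast-like cells that was below the share of all genes. Among the 35 were Mib1 in 5 classes and Ep300, a histone acetyltransferase that Notch recruits, in 5, Rbpj in 3 and Adam10, Adam17, Eogt and Dtx3l in 2 each. The 4 lower ones were Dlk2 in basal-like (0.445), Dtx2 in spinous-like (0.572), Mfng in sebocyte-like (0.105) and Nrarp in blood endothelial-like cells (0.411).

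Nrarp, a direct target that limits the pathway, was lower in basal-like than in spinous-like cells in all 3 libraries. It was at 20.7, 19.5 and 25.9 CPM in basal-like cells of NP, dpc16 and dpp42, at 163, 179 and 128 in spinous-like cells and at 392, 360 and 149 in granular-like cells. Basal-like libraries lay below all the others, while spinous-like and granular-like libraries overlapped. Several other components were found mainly in a few classes. Dll4, the ligand of arterial and sprouting endothelium, was at 175, 169 and 120 CPM in blood endothelial-like cells and at 0 to 2.73 CPM in basal-, spinous- and granular-like cells. Notch4 was at 55.2, 37 and 27.4 CPM in blood endothelial-like cells and Mfng, a glycosyltransferase that modifies the receptors, at 64.4, 70.1 and 44.5 CPM. Its relative Lfng was at 21.1, 25.3 and 50.3 CPM in bulge-like cells and at 2.14, 1.64 and 2.76 CPM in spinous-like cells. Hes5 gave 11 UMIs in all cells.

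For each member, the genes with the most similar pattern were taken from 4842 genes over 12 classes of at least 50 cells, by Pearson correlation of log2(CPM + 10). The classes share libraries and depth, so the values are descriptions. Notch3 was most like Slc12a2 (0.880), Nrarp (0.879) and Ube2z (0.824), Notch1 like Arid1a (0.918), Ddx46 (0.882) and Efna1 (0.873), and Notch2 like Cd82 (0.733), Nedd8 (0.708) and Gmfb (0.705). Jag1 was nearest to Kdm2a (0.928), Palmd (0.926) and Mark4 (0.918), Jag2 to Rbbp8 (0.929), Impdh2 (0.907) and Syne2 (0.905), and Dll1 to Fbxw7 (0.885), Luc7l3 (0.846) and 2310001H17Rik (0.833). Hes1 was nearest to Pir (0.947), Pptc7 (0.900) and Smtn (0.880), and Hey1 to Cyyr1 (0.973), Foxo1 (0.973) and Slc9a3r2 (0.968). Of these 24 genes, Nrarp and Fbxw7, a ubiquitin ligase subunit that targets the Notch intracellular domain for degradation, are on the pathway list.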

How the data were processed

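Single cells of abdominal skin were measured with 10x Chromium version 2 3′ libraries, 1 per group, from skin held in 0.25% trypsin for 30 min, per the labels' protocols. The authors deposited UMI counts per gene and cell, made with Cell Ranger 2.2.0 on mm10 (GRCm38), per the submitters' processing notes; no label states the gene annotation or how cells were called. Cells were clustered with scanpy 1.11.5 (2000 variable genes, 30 components, 15 neighbours, Leiden resolution 1) without the 62 listed Notch genes. Clusters were named by a marker list with at least 3 genes in their 10 leading genes, otherwise by the highest mean enrichment; 121, 421 and 168 cells in NP, dpc16 and dpp42 stayed unnamed. This naming rule was set after the clusters were seen. Scrublet marked 1, 2 and 1 cells, too few to have worked, and none was removed. Counts were summed per class and library and divided by all UMIs (CPM), with exact Poisson intervals; ratios have conditional binomial 95% intervals. The rule for genes to name took all 8 members, other pathway genes of at least 200 UMIs or with a call, and the 3 genes most like each member; the rule keeps genes of at least 500 UMIs and 50 CPM for the last. Notch4 and Hes5 were added after their values were seen. Of 28693 gene identifiers, 28339 matched GENCODE M21. Some pathway genes that meet that rule are counted but their values are not reported here. The members and lists were chosen with earlier results of these data known. The ratio script was tested on simulated data. Alternatives are in the closing section.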

Additional observations from a re-analysis of the deposited data

Results flagged for a closer look

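Notch1 moved in opposite directions in 2 keratinocyte classes between dpc16 and NP: with 0.5 UMI added to each count the ratio was 1.699 in infundibulum-like cells and 0.6382 in basal-like cells. The difference between the classes was not tested, each class has 1 library per group, and the infundibulum-like direction reversed under other clusterings, as given below.

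Some clusters that no marker list named held more of a member than every named class of at least 50 cells. That limit leaves out smaller named classes that held more. Granular-like cells (49 cells) had Notch2 at 94.5 CPM or above in every library and Notch3 at 70.2 CPM over all libraries. Notch3 was at 287 CPM in mural-like cells, and Jag1 at 202 CPM in capillary and arterial endothelial-like cells. Jag1 stood at 190.2 CPM in cluster 21, led by Nppc, Sgk1 and Lgr5, with 221 CPM in NP, 192 in dpc16 and 157 in dpp42. Cluster 27, led by Pinlyp, Krt6a, Gpx2 and Krt75, held Notch2 at 82.56 CPM and Notch3 at 64.5 CPM, from 32 and 25 UMIs in 98 cells, of which 50 were in dpc16, 43 in dpp42 and 5 in NP. Hes1 stood at 2342 CPM in cluster 29, led by Coch, Fmod and Tnmd, where 41 of 44 cells were in dpc16. Bulge-like cells had 2100 CPM over all libraries but 2528 CPM in dpc16 alone, so cluster 29 was not above them within that library.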

How the results depend on the processing

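No paired analysis was possible because each group is 1 library. The 32 differences between libraries that the report names were recomputed in 256 further fits, of which 188 kept direction and call, 62 kept only the direction and 6 reversed; 4 more could not be run, all in spinous-like cells with each library clustered alone. The log2 ratios that reversed were Hes1 in bulge-like cells (-0.069 for dpc16 over NP with clusters weighted equally, and 0.22 for dpp42 over dpc16 with clusters weighted equally or without cluster 1), Notch1 in infundibulum-like cells for dpc16 over NP (-0.49 at resolution 2, -0.59 with each library clustered alone) and Hes1 in sebocyte-like cells for dpp42 over NP (1.09 with at most 5% mitochondrial UMIs). In those cases the cause was not tested.

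The number of member values lower in dpc16 than in NP was 9, and 2 with ratios scaled by the median gene, 5 with cells thinned to 1500 UMIs, 16 as a mean over cells and 17 with clusters weighted equally; the number higher was 3, and 5 as a mean over cells. The last 2 settings call by size alone, without an interval. For dpp42 over NP the number higher was 1, and 2 with at most 5% mitochondrial UMIs or with each library clustered alone, 0 at resolution 2, 5 as a mean over cells, 9 with clusters weighted equally and 3 without cluster 1; the number lower was 4, and 2 with at most 5% mitochondrial UMIs and 7 with each library clustered alone or as a mean over cells. For dpp42 over dpc16 the number higher was 11, and 6 thinned, 18 as a mean over cells and 22 with clusters weighted equally; the number lower was 4, and 2 under that mitochondrial limit. Among other pathway genes, scaling by the median gene gave 6 higher in dpc16 than in NP in place of 2, and 23 higher and 9 lower in dpp42 than in dpc16 in place of 35 and 4. For dpp42 over NP their number higher, 2, was 5 with no minimum of UMIs and 1 at a ratio of 2.

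Between classes, the log2 ratio of spinous-like to basal-like cells moved from -2.49 to -1.74 for Dll1 when thinned, and from -0.036 to 0.44 (thinned) and -0.81 (classes per cell) for Hes1. Blood endothelial-like over fibroblast-like cells moved from 4.02 to 5.30 for Hey1 with classes per cell, and from 3.69 to 4.68 for Notch1 with classes per cell and to 4.06 with at most 5% mitochondrial UMIs. Sums over keratinocyte-like cells, in place of equal weights, moved Notch3 from -0.53 to -1.03 and Hes1 from 0.10 to 0.44 for dpc16 over NP, and Notch1 from 0.29 to 0.044 for dpp42 over NP. Depth limits Hey1 in keratinocytes, Notch3 in basal-like cells and all values of mural-like cells. Weighting the clusters of a class equally and leaving out cluster 1 were chosen after seeing the data.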

Other observations

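Values in cells that belong to no comparison above are given here without a test. An unnamed cluster of 52 cells led by Slc26a7, Crabp1, Serpine2 and Igfbp3, of which Crabp1 is on the dermal papilla and sheath list, held Dll1 at 146 CPM in NP (58.9 to 302), 68.5 in dpc16 (31.3 to 130) and 91.6 in dpp42 (11.1 to 331), from 18 UMIs. Notch1 was at 89.5 CPM in the same cluster. Notch1 in cluster 27 was at 197 CPM in dpc16 and 281 CPM in dpp42, while Dll1 gave 1 UMI there.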
